A study of Mus musculus with 12 samples.

Results

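A set of 10 genes of the TGF-beta system, chosen by name, were read across all 12 arrays of the study: the ligands Tgfb1, Tgfb2 and Tgfb3, the latency protein gene Ltbp1, the feedback inhibitor Smad7, and the matricellular genes Tgfbi, Ccn2, Tnc, Postn and Thbs1. They were chosen with earlier results of these data known, so their share of called genes cannot be read as an enrichment. The members were every probe whose gene name in the scanner files was one of these 10 symbols, with Ccn2 written there as Ctgf. This gave 15 of the 41174 probes on the array, printed on 24 spots. Of the 15 probes, 14 passed the filter on dim probes, and all 10 genes kept at least 1 probe among the 19823 genes tested. The probe that represented each of the 10 genes, which is its brightest, was well above background on all 12 arrays.

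RNA of whole lung was measured with 1 single-colour Agilent array per mouse, in 3 groups of 4 mice. The groups were Rora mutant mice exposed to cigarette smoke, wild-type (WT) mice exposed to cigarette smoke, and WT mice kept in room air. Per the labels all were male C57Bl/6 mice with an age of 12 weeks, and the smoke protocol ran on 5 days a week for 4 months, so that 12 weeks cannot be the age at its end. The Rora allele of the mutants, and the cells in which it acts, are not given in the sources used here. Mutants in room air were not analysed here, so a difference of genotype cannot be told apart from a different answer to smoke. In RNA of a whole organ, fewer cells of a type and less RNA per cell cannot be told apart either.

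TGF-beta is secreted in a latent complex, in which its own propeptide is tethered to the matrix by latent TGF-beta binding proteins such as that encoded by Ltbp1. Integrins and thrombospondin 1, the product of Thbs1, can release the active ligand, which signals through serine/threonine kinase receptors to Smad transcription factors. Smad7 is induced by the signal and blocks it. Matricellular proteins are secreted into the matrix to steer how cells adhere and respond to growth factors rather than to bear load, and several of them are induced by TGF-beta in lung injury and repair.

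A level below is the log2 signal over the array's own 75th percentile of signal, and a difference is one of such levels. A gene was called where the Benjamini-Hochberg adjusted p of limma, over all 19823 genes, was under 0.05. The arrays of a group correlated at 0.9941 to 0.9967 with each other and at 0.9872 to 0.9949 with those of other groups. Rora averaged -1.01 ± 0.10 in Rora mutant smoke lungs, 1.18 ± 0.04 in WT smoke lungs and 1.10 ± 0.04 in WT room air lungs (SD, n = 4 each), and all 7 lung identity genes were well above background on all 12 arrays. The labels call every mouse male, yet Xist lay between 3.97 and 4.13 on the 4 WT room air arrays and at or below -3.18 on all 8 smoke arrays. Ddx3y, a Y-linked gene, was well above background on 4 of 4 Rora mutant smoke arrays, 4 of 4 WT smoke arrays and 0 of 4 WT room air arrays. Smoke exposure and this sex-linked difference cannot be told apart in either comparison with room air. None of the 10 genes has a probe placed on the X or Y chromosome.

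In WT lungs, smoke went with more Thbs1 and less Tgfb3, while Tgfb1, Tgfb2, Ltbp1, Smad7, Tgfbi, Ccn2, Tnc and Postn were not called. That is 2 of 10 genes, against 4.86% of all genes called in this comparison (2.31% higher and 2.55% lower). Their arrays were also the only ones among the 10 genes that did not overlap between WT smoke and WT room air, against 12.9% of all genes. The 2 moved in opposite directions, 1 higher and 1 lower, and the median difference of the 10 genes was 0.05 beside -0.01 over all genes.

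**Figure D1:**
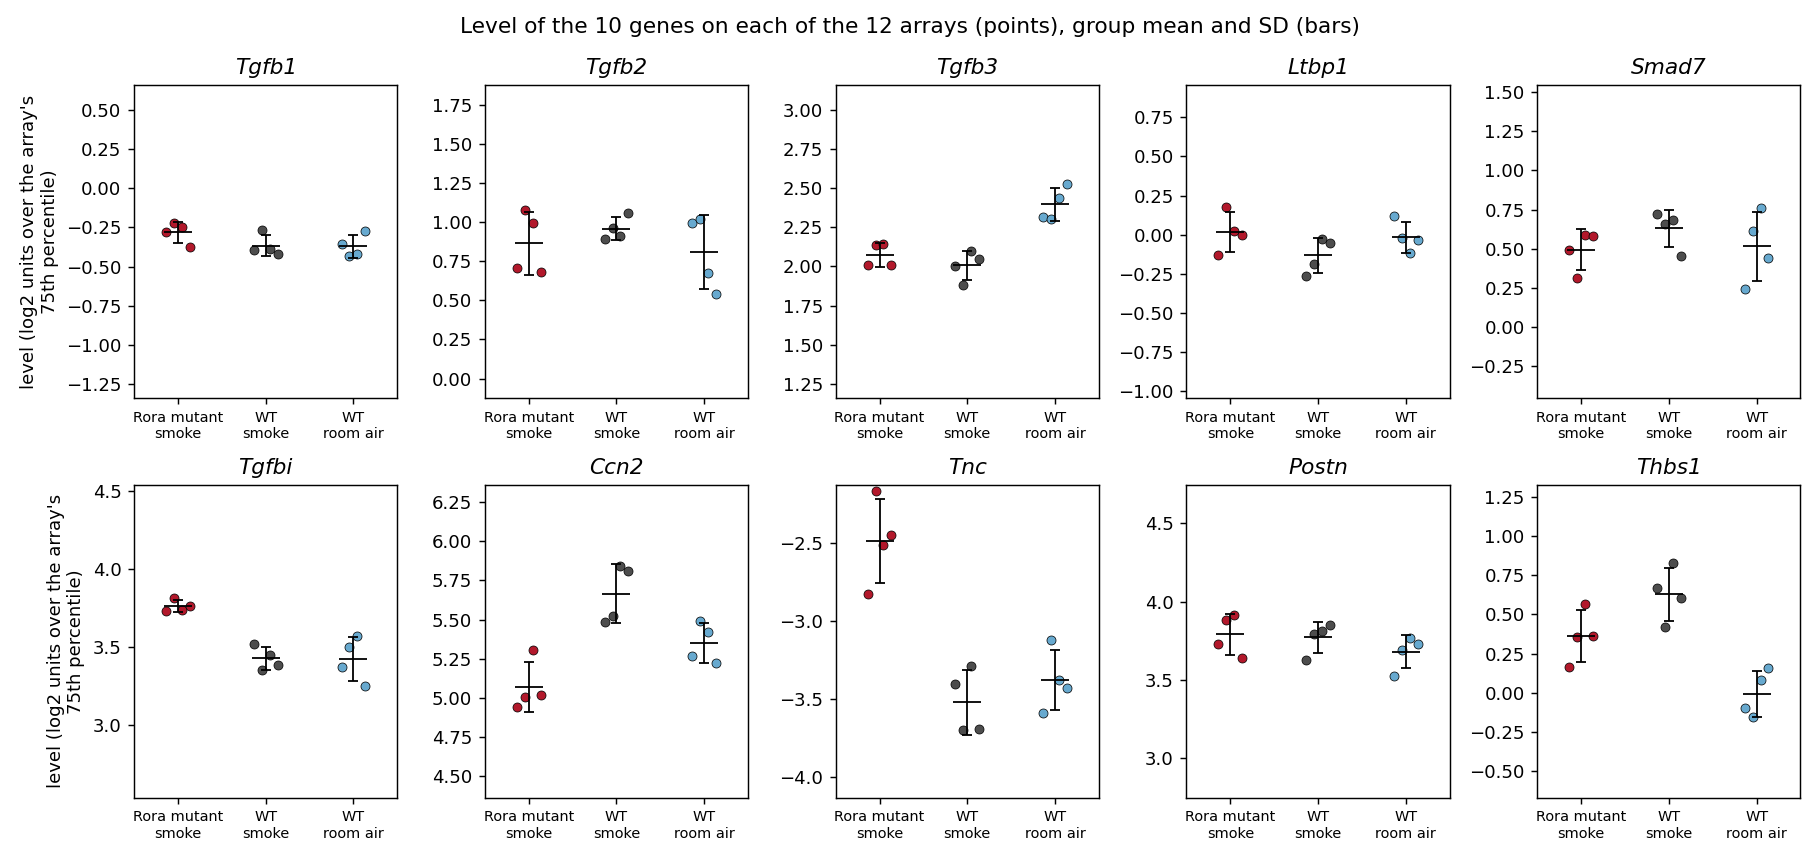
Level of each of the 10 genes (y axis, log2 scale, relative to each array's 75th percentile of signal, every panel 2 units high) on the 4 arrays of Rora mutant smoke, WT smoke and WT room air lungs, with points for arrays and bars for the group mean and SD. Tgfb3 is higher on all 4 WT room air arrays, Thbs1 is higher on both sets of smoke arrays, and Tgfbi and Tnc are higher on all 4 Rora mutant smoke arrays.

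Thbs1 read 0.67, 0.42, 0.83 and 0.61 on the WT smoke arrays, against -0.10, -0.16, 0.08 and 0.15 on the WT room air arrays. Every WT smoke array lay above every WT room air array, and limma gave a difference of 0.64 ± 0.11 (SE), or 1.55-fold, with an adjusted p of 0.00598. The representative probe lies at chr2:117817480-117817539 of mouse build mm8, as placed by the files. The 2 other Thbs1 probes, at chr2:117814035-117814094 and chr2:117812417-117812597, rose by 0.67 ± 0.10 and 0.63 ± 0.10 (limma over all 30189 kept probes, of which 4.07% were called, adjusted p = 0.00306 and 0.00568). Within each of the 3 slides the difference of the representative probe was 0.64, 0.67 and 0.75. All 3 probes thus gave nearly the same size of difference.

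Thrombospondin 1 is stored in platelet granules as well as made by tissue cells, and platelet markers were also higher in WT smoke lungs. Of the 10 platelet markers measured, 10 rose in WT smoke lungs, which is 100% beside 4.86% of all genes. Their median difference was 1.32 against -0.01 over all genes. Their mean level was -0.26, -0.19, -0.47 and -0.22 on WT smoke arrays 1 to 4, and -1.68 to -1.51 on the WT room air arrays. Within WT smoke, array 3 was lowest for the platelet list and highest for Thbs1, and array 2 the reverse. Within WT room air, array 4 was lowest for the list and highest for Thbs1, and array 2 the reverse. The Rora mutant smoke arrays went the other way, with array 3 highest for both the list (-0.04) and Thbs1 (0.57). Among them array 4 was lowest for the list and array 1 for Thbs1. Pf4, the platelet chemokine that defines the list, was higher by 0.93 ± 0.10 and Itga2b, the platelet integrin chain, by 1.18 ± 0.13 (SE). The part of platelets in the Thbs1 difference was not tested.

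Immediate early genes, which tissue handling as well as signals can switch on within minutes, were uneven among the WT smoke arrays. Their mean level over 13 genes was 0.70, 0.69, 1.74 and 1.23 on WT smoke arrays 1 to 4, against 0.47, 0.43, 0.62 and 0.76 on the WT room air arrays. Of the 13, 2 rose and 0 fell, which is 15.4% beside 4.86% of all genes. With both WT smoke arrays 3 and 4 left out, a setting chosen after seeing the data, the Thbs1 difference was 0.55 and its limma adjusted p 0.0775. That fit has 2 WT smoke arrays in place of 4, and in it Tgfb3 was still called, at -0.45 (adjusted p = 0.031).

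Tgfb3, the ligand best known for palate and lung development, read 2.00, 1.88, 2.10 and 2.05 on the WT smoke arrays, against 2.32, 2.30, 2.44 and 2.52 on the WT room air arrays. The groups did not overlap. Its single probe, at chr12:86945957-86946016, fell by 0.39 ± 0.07 (SE), which is 0.764 times the WT room air level (limma adjusted p = 0.00778). Within slides 1, 2 and 3 the difference was -0.42, -0.34 and -0.34. Fibroblasts and smooth muscle are among the sources of TGF-beta ligands, and their marker lists lay lower on the WT smoke arrays too. The fibroblast list averaged 2.36 to 2.51 on WT smoke arrays and 2.54 to 2.72 on WT room air arrays. Of its 12 genes, 1 was called lower and none higher, which is 8.33% beside 4.86% of all genes. Smooth muscle markers averaged 1.65 to 2.00 on WT smoke arrays and 2.05 to 2.13 on WT room air arrays, with 0 of 8 called by limma and 4 at an unadjusted p under 0.05. Cartilage and perichondrium markers, which would mark airway wall left in the sample, were called lower for 2 of 7 genes. That is 28.6% beside 4.86% of all genes, and only 7 of the 12 genes listed had a kept probe. The 2 were Chad at -1.25 ± 0.11 and Col2a1 at -0.58 ± 0.15 (SE). The dimmer Col2a1 probe had -0.02, and neither Col2a1 probe was called over all kept probes. The list was dim, with a mean of -4.62 in WT smoke and -4.02 in WT room air lungs. The part of these cell types in the Tgfb3 difference was not tested.

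The other 2 ligands gave no call in WT lungs. Tgfb1, the main TGF-beta of inflamed and fibrotic lung, averaged -0.37 ± 0.07 in WT smoke lungs and -0.37 ± 0.07 in WT room air lungs (SD, n = 4 each). Its probe was printed on 10 spots of each array, and the SD between those spots was 0.0231 to 0.0687, with a median of 0.0453, beside a pooled SD between mice of 0.0683. The 95% interval of the Tgfb1 difference ran from -0.12 to 0.13. For Tgfb2 it ran from -0.12 to 0.42, with WT room air arrays that spread from 0.54 to 1.02.

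Ccn2, a matricellular protein long known as connective tissue growth factor, was 0.31 ± 0.11 (SE) higher in WT smoke lungs but was not called (limma adjusted p = 0.13). The differences of Ltbp1, Smad7, Tgfbi, Tnc and Postn lay between -0.14 and 0.11, and all 5 intervals held 0. Tgfbi, an integrin-binding matrix protein named for its induction by TGF-beta, had a difference of 0.0044 with an interval from -0.15 to 0.16.

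Set against WT smoke lungs, Rora mutant smoke lungs had more Tnc and Tgfbi and less Ccn2. That is 3 of 10 genes, against 6.04% of all genes called in this comparison (2.48% higher and 3.56% lower), and the median over the 10 genes was 0.04. The same 3 genes were the only ones of the 10 whose arrays did not overlap, against 13.4% of all genes. No ligand gene, neither Ltbp1 nor Smad7, and neither Postn nor the representative probe of Thbs1 was called.

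**Figure D2:**
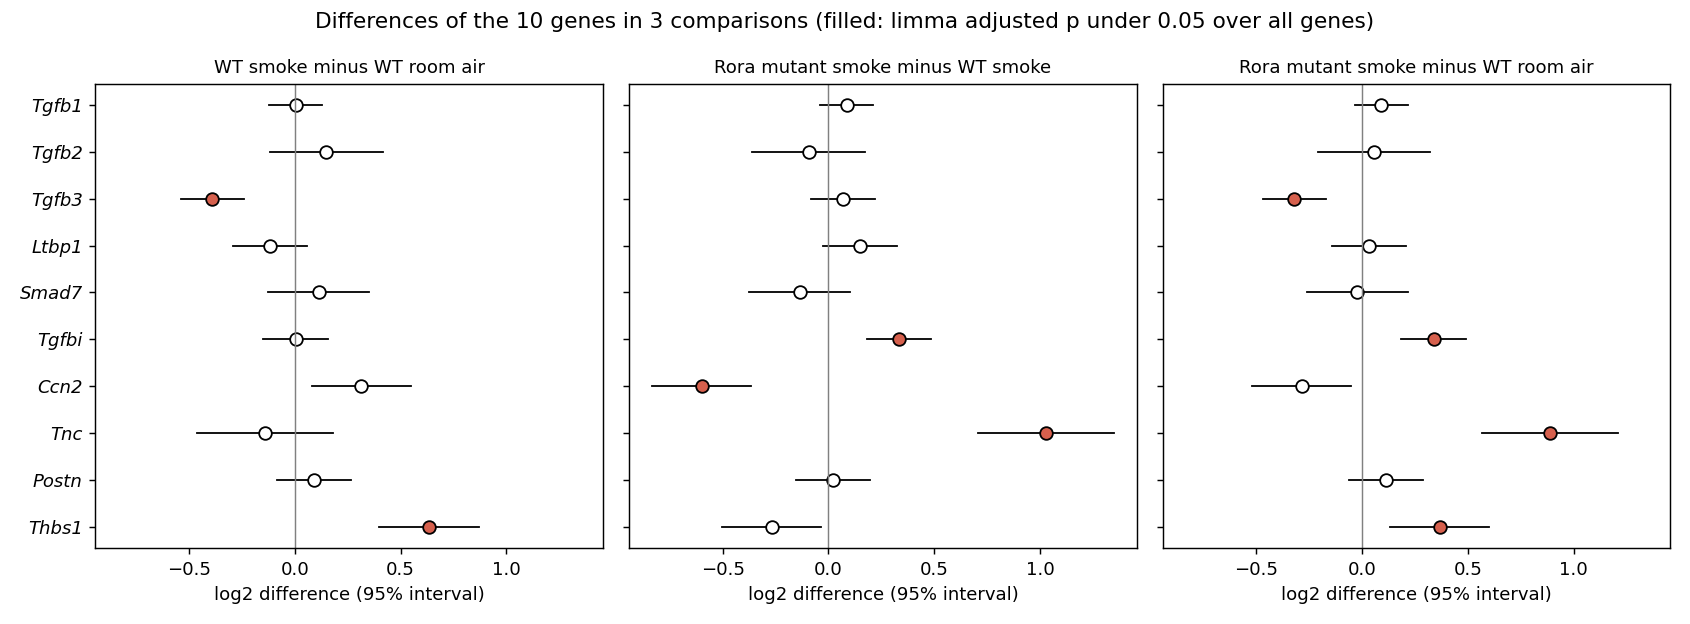
Difference (x axis, log2 units) of each of the 10 genes in the 3 comparisons, each panel named by the groups subtracted, as limma estimates with 95% intervals, filled where the adjusted p over all 19823 genes is under 0.05. Thbs1 and Tgfb3 are filled in WT smoke minus WT room air, and Tnc, Tgfbi and Ccn2 in Rora mutant smoke minus WT smoke.

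Tnc encodes tenascin-C, a matricellular glycoprotein that is scarce in resting adult lung and appears at sites of repair and inflammation. Its representative probe, at chr4:63446146-63446191, read -2.83, -2.17, -2.52 and -2.45 on the Rora mutant smoke arrays, against -3.41, -3.70, -3.29 and -3.69 on the WT smoke arrays. No mutant array overlapped a WT smoke array, and the difference was 1.03 ± 0.15 (SE), or 2.04-fold (limma adjusted p = 0.00296). Of the 10 genes it had the largest difference, at rank 144 of 19823 by size. Within slides 1, 2 and 3 it was 0.58, 1.53 and 0.80.

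The Tnc difference was 1.06 with quantile normalization of the processed signal (limma adjusted p = 0.00186). It was 0.47 when normexp background correction came before quantile normalization (adjusted p = 0.00247). A dimmer Tnc probe, at chr4:63471205-63471264, was well above background on 4 of 4 Rora mutant smoke arrays, 1 of 4 WT smoke arrays and 1 of 4 WT room air arrays. It read -5.91, -5.14, -4.46 and -6.10 on the Rora mutant smoke arrays, against -6.45, -6.27, -7.23 and -6.54 on the WT smoke arrays. These did not overlap, but the probe was not called over all 30189 kept probes (1.22 ± 0.34, limma adjusted p = 0.0576). The third Tnc probe, at chr4:63499575-63500338, was well above background on 1 of 12 arrays, Rora mutant smoke replicate 2, and was not tested.

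**Figure D3:**
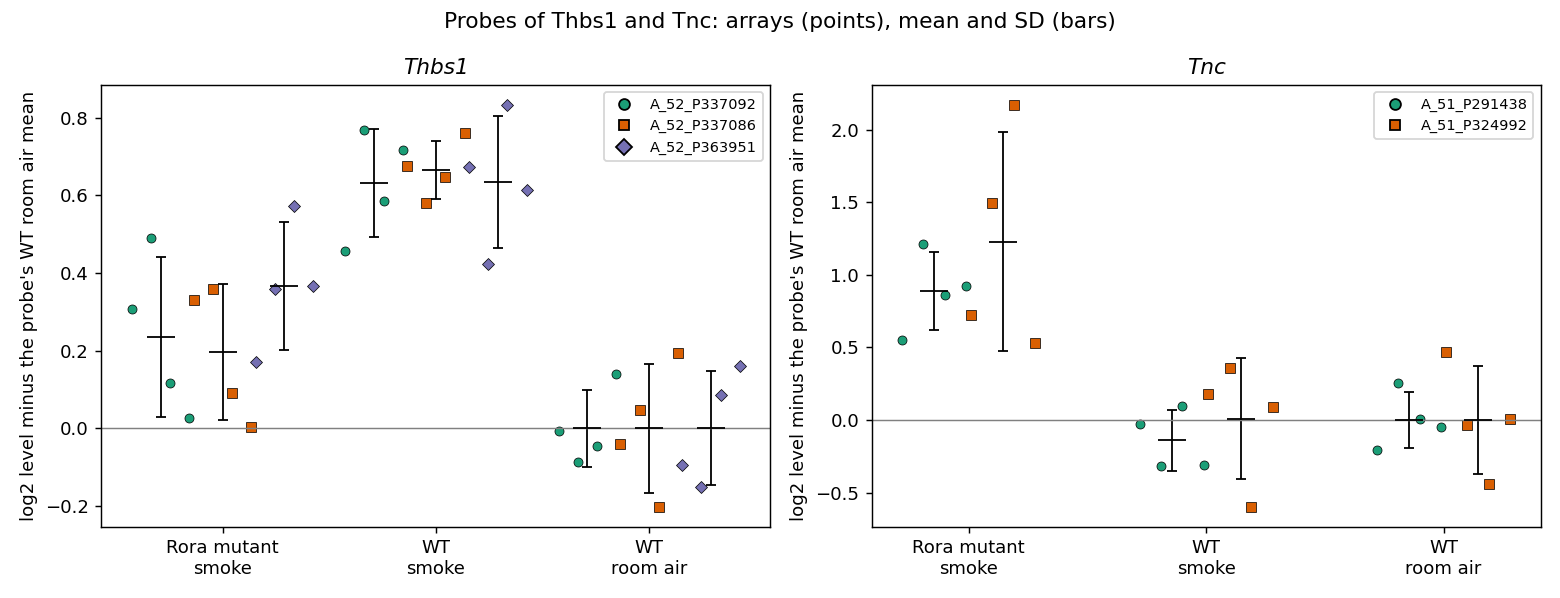
Every kept probe of Thbs1 (3 probes) and Tnc (2 probes), as the log2 level minus that probe's WT room air mean (y axis), on Rora mutant smoke, WT smoke and WT room air arrays (points), with the mean and SD of 4 arrays (bars). The 3 Thbs1 probes are highest on the WT smoke arrays, with Rora mutant smoke between the other groups, and both Tnc probes are highest on the Rora mutant smoke arrays.

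Tgfbi read 3.73, 3.82, 3.74 and 3.76 on the Rora mutant smoke arrays, against 3.52, 3.35, 3.45 and 3.39 on the WT smoke arrays. The mutant arrays lay close together and above every WT smoke array. Its single probe, at chr13:56648721-56648780, rose by 0.33 ± 0.07 (SE), or 1.26-fold (limma adjusted p = 0.0193). The difference within slides was 0.21, 0.45 and 0.30. Leaving out Rora mutant smoke replicate 4 gave 0.33 with an adjusted p of 0.0519, and leaving out WT smoke replicate 2 gave 0.31 with an adjusted p of 0.0501.

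Macrophages make Tgfbi, and their markers moved in the same comparison. Of 10 alveolar macrophage markers, 5 rose in Rora mutant smoke lungs and 0 fell, which is 50% beside 6.04% of all genes. Their median difference was 0.52 against 0.0021 over all genes. The list averaged 2.58, 2.45, 2.15 and 2.56 on the Rora mutant smoke arrays, against 1.91, 1.90, 1.94 and 1.80 on the WT smoke arrays. Siglecf, a lectin that marks alveolar macrophages and eosinophils, was higher by 0.82 ± 0.08 and Chil3, a chitinase-like protein of macrophages, by 0.73 ± 0.12 (SE). In WT smoke minus WT room air, 2 of the 10 macrophage markers rose and 0 fell, which is 20% beside 4.86% of all genes. Their median there was 0.05, while Tgfbi differed by 0.0044. Against WT room air, 9 of the 10 were higher in Rora mutant smoke lungs, which is 90% beside 16.7%. The part of macrophages in the Tgfbi and Tnc differences was not tested. In Rora mutant smoke minus WT smoke, 2 of 12 fibroblast markers were called higher and 0 lower, which is 16.7% beside 6.04% of all genes. The fibroblast list median was -0.0154. The 2 were Pdgfra at 0.45 ± 0.08, whose dimmer probe had 0.13 and was not called, and Col14a1 at 0.42 ± 0.09. The fibroblast list averaged 2.28 to 2.70 on Rora mutant smoke arrays and 2.36 to 2.51 on WT smoke arrays.

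The start regions of these 2 genes are shown because Tgfbi and Tnc rose together in the mutants. Each run holds the 250 bases before a transcript start of the gene in RefSeq, build GRCm38.p6, read 5' to 3' on the gene's strand, with matches to the Smad element CAGAC or its reverse complement GTCTG in capitals.
Tgfbi, chr13:56609336-56609585, plus strand: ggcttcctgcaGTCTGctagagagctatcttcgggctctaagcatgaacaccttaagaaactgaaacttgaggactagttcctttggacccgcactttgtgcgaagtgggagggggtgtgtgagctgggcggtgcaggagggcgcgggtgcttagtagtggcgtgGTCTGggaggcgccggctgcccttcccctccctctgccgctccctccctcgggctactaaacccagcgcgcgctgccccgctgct
Tnc, chr4:64046937-64047186, minus strand: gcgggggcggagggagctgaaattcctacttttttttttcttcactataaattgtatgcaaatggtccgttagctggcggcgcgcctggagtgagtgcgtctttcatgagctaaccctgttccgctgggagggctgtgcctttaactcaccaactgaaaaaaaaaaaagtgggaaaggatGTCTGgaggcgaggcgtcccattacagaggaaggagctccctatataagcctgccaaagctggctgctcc
Counted from the transcript start, Tgfbi holds GTCTG at -239 and -85, and Tnc holds it at -70. A second annotated Tnc start has no match in the 250 bases before it. Of all 32851 such windows, 42.2% hold the Smad element on either strand, so that these matches are a description of the letters and not sites. Also searched on both strands were an AP-1 element (TGACTCA), in 4.5% of windows, a ROR half-site (AGGTCA), in 14%, and a TEAD element (GGAATG), in 12.6%. None of the 3 was found in the printed windows. Windows were at hand for 6 of the 10 genes: Tgfb1, Tgfb2, Tgfbi, Ltbp1, Tnc and Postn.

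Ccn2 went the other way. It read 4.94, 5.00, 5.30 and 5.02 on the Rora mutant smoke arrays, against 5.49, 5.52, 5.84 and 5.81 on the WT smoke arrays. The groups did not overlap, and its single probe, at chr10:24287891-24287950, fell by 0.60 ± 0.11 (SE), to 0.660 times the WT smoke level (limma adjusted p = 0.00954). Within slides 1, 2 and 3 the difference was -0.54, -0.67 and -0.68. On the WT room air arrays Ccn2 read 5.27, 5.49, 5.42 and 5.23. The order of the group means was thus Rora mutant smoke (5.07), WT room air (5.35) and WT smoke (5.67), and of the neighbours in that order neither pair was called.

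Ccn2 is induced quickly by TGF-beta, by stretch and by serum, and the 2 WT smoke arrays where it was highest, 3 and 4, were also those with the highest immediate early genes. That list averaged 0.45, 0.46, 0.64 and 0.59 on the Rora mutant smoke arrays, against 0.70, 0.69, 1.74 and 1.23 on the WT smoke arrays. Of its 13 genes, 3 were called lower in mutants and 0 higher, which is 23.1% beside 6.04% of all genes. Among the Rora mutant smoke arrays, array 3 was likewise highest for both the list and Ccn2. The WT room air arrays went the other way. Array 4 had the highest list mean (0.76) and the lowest Ccn2 (5.23), and array 2 the lowest list mean (0.43) and the highest Ccn2 (5.49). Ccn1, a close relative of Ccn2, differed by -0.73 ± 0.21 (SE) and was not called (limma adjusted p = 0.0655). With both WT smoke arrays 3 and 4 left out, which was chosen after seeing the data, the Ccn2 difference was -0.44 and not called (limma adjusted p = 0.0874), and that of Tgfbi was 0.32 (adjusted p = 0.119). Tnc was still called, at 1.06 (adjusted p = 0.0251). Of the 3 genes, 1 was called higher and 0 lower in that fit, which has 2 WT smoke arrays. The part of immediate early induction in the Ccn2 difference was not tested.

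Thbs1 gave a split answer between genotypes. The representative probe read 0.16, 0.35, 0.57 and 0.36 on the Rora mutant smoke arrays, against the WT smoke values given above, which overlap them. Its difference of -0.27 ± 0.11 (SE) was not called (limma adjusted p = 0.175). Both dimmer probes were called lower over the 30189 kept probes, with differences of -0.47 ± 0.10 (adjusted p = 0.0211) and -0.40 ± 0.10 (adjusted p = 0.0477), against 5.83% of probes called. Averaging all 3 probes gave -0.38 with an adjusted p of 0.0118. Platelet markers did not pass the test here, with 0 of 10 called by limma, 2 at an unadjusted p under 0.05 and a median of -0.19.

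The other 6 genes were not called between Rora mutant smoke and WT smoke lungs. Tgfb2 averaged 0.86 ± 0.20 in Rora mutant smoke lungs, 0.96 ± 0.07 in WT smoke lungs and 0.81 ± 0.24 in WT room air lungs (SD, n = 4 each). Smad7 averaged 0.49 ± 0.13 in Rora mutant smoke lungs, 0.63 ± 0.12 in WT smoke lungs and 0.52 ± 0.22 in WT room air lungs. Ltbp1 averaged 0.02 ± 0.13 in Rora mutant smoke, -0.13 ± 0.11 in WT smoke and -0.01 ± 0.10 in WT room air lungs, and Postn 3.79 ± 0.13 in Rora mutant smoke, 3.77 ± 0.10 in WT smoke and 3.68 ± 0.11 in WT room air lungs. The groups overlap for all 4 of these genes. The 3 ligands had differences of 0.09 (Tgfb1, interval -0.04 to 0.21), -0.09 (Tgfb2, -0.36 to 0.17) and 0.07 (Tgfb3, -0.08 to 0.22). Ltbp1 had 0.15 (-0.03 to 0.32) and Smad7 -0.14 (-0.37 to 0.10). A second, dimmer Ltbp1 probe, at chr17:75130373-75130432, had -0.06 ± 0.16 (SE), with a sign opposite to that of the representative probe at chr17:75295778-75295911, and neither was called. Postn encodes periostin, an integrin ligand raised in airways of people with asthma, and had a difference of 0.02 (-0.15 to 0.19).

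Rora mutant smoke lungs were also set against WT room air lungs, a comparison that shares arrays with both others and that changes genotype and exposure together, with the sex-linked difference described above. Of the 10 genes, 3 were called higher (Tnc, Tgfbi and Thbs1) and 1 lower (Tgfb3), against 16.7% of all genes called (6.67% higher and 10% lower). The arrays of the same 4 genes did not overlap, against 21% of all genes. Tnc was 0.89 ± 0.15 higher (SE, adjusted p = 0.00214), with -3.59, -3.12, -3.38 and -3.43 on the WT room air arrays. Tgfbi was 0.34 ± 0.07 higher (adjusted p = 0.00733), with 3.37, 3.50, 3.57 and 3.25 on the WT room air arrays. For both genes the 2 WT groups were neighbours with no call between them, with Rora mutant smoke above them.

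Tgfb3 read 2.01, 2.14, 2.15 and 2.01 on the Rora mutant smoke arrays, all below the WT room air arrays, and was 0.32 ± 0.07 lower by limma (adjusted p = 0.00905). Here the 2 smoke groups were the neighbours with no call between them. The fibroblast list averaged 2.28 to 2.70 on Rora mutant smoke arrays and 2.54 to 2.72 on WT room air arrays, which overlap. Smooth muscle markers averaged 1.91 to 2.15 on Rora mutant smoke arrays and 2.05 to 2.13 on WT room air arrays, which overlap too. The part of these cell types in the Tgfb3 difference was not tested here either. Thbs1 was 0.37 ± 0.11 higher by its representative probe (limma adjusted p = 0.0371). Its other probes were not called, where 16.3% of all kept probes were, at 0.24 ± 0.10 (adjusted p = 0.151) and 0.20 ± 0.10 (adjusted p = 0.206). The Thbs1 call was lost in 7 of 24 alternative settings, with adjusted p up to 0.1. As in WT smoke lungs, 10 of 10 platelet markers were higher, which is 100% beside 16.7% of all genes. Their mean level was -0.89 to -0.04 on the Rora mutant smoke arrays, with a median difference of 1.08.

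The other genes that hold or release latent TGF-beta were also counted, beside receptors, Smads and inhibitors. In WT smoke minus WT room air, 2 of 17 latency and activation genes rose and 0 fell, which is 11.8% beside 4.86% of all genes, with a median of 0.0093. They were Itgb3, at 0.73 ± 0.10, and Itgb6, at 0.45 ± 0.09 (SE, limma adjusted p = 0.00193 and 0.0161), the partner chains of integrin alpha v that bind latent TGF-beta. Itgb3 also pairs with Itga2b in platelets, and its second probe was not called (0.21, limma adjusted p = 0.521). Itgb6, which is epithelial, read 0.27, 0.38, 0.55 and 0.40 on the WT smoke arrays, against 0.06, 0.05, -0.15 and -0.15 on the WT room air arrays. Its 2 dimmer probes had 0.31 and 0.22 and were not called.

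In Rora mutant smoke minus WT smoke, 3 of those 17 genes rose and 1 fell, which is 23.5% beside 6.04% of all genes. Itgb6 was higher by 0.37 ± 0.09, with 0.72, 0.58, 0.87 and 0.93 on the Rora mutant smoke arrays, though its other probes had 0.24 and -0.05 and were not called. Fbn1, the fibrillin that anchors latent complexes, was higher by 0.36 ± 0.08, and its second probe was called too, at 0.45. Itgb1 was higher by 0.20 ± 0.05 (limma adjusted p = 0.0499), with no call for any of its 3 probes over all probes. Ltbp4, a latent TGF-beta binding protein of elastic tissue, was lower by 0.29 ± 0.06 (adjusted p = 0.0256). Against WT room air, 4 of the 17 were higher and 3 lower in Rora mutant smoke lungs, which is 41.2% beside 16.7%.

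Receptors and Smads carry the signal from the cell surface to the nucleus. In WT smoke minus WT room air limma called 0 of 17 (2 at an unadjusted p under 0.05), with a median of 0.05, and in Rora mutant smoke minus WT smoke 0 of 17 (1 at an unadjusted p under 0.05), with a median of 0.01. Set against WT room air, Rora mutant smoke lungs had 2 of 17 called, both higher, which is 11.8% beside 16.7% of all genes. They were Acvrl1, an endothelial type I receptor, at 0.28 ± 0.07 and Smad3 at 0.31 ± 0.09. The dimmer Smad3 probes had 0.35 and 0.07 and were not called, and the Smad3 call was lost in 12 of 24 alternative settings. Of 16 inhibitors of the pathway, limma called 0 in each of the 3 comparisons, while 1, 3 and 0 had an unadjusted p under 0.05 in WT smoke minus WT room air, Rora mutant smoke minus WT smoke and Rora mutant smoke minus WT room air.

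**Figure D4:**
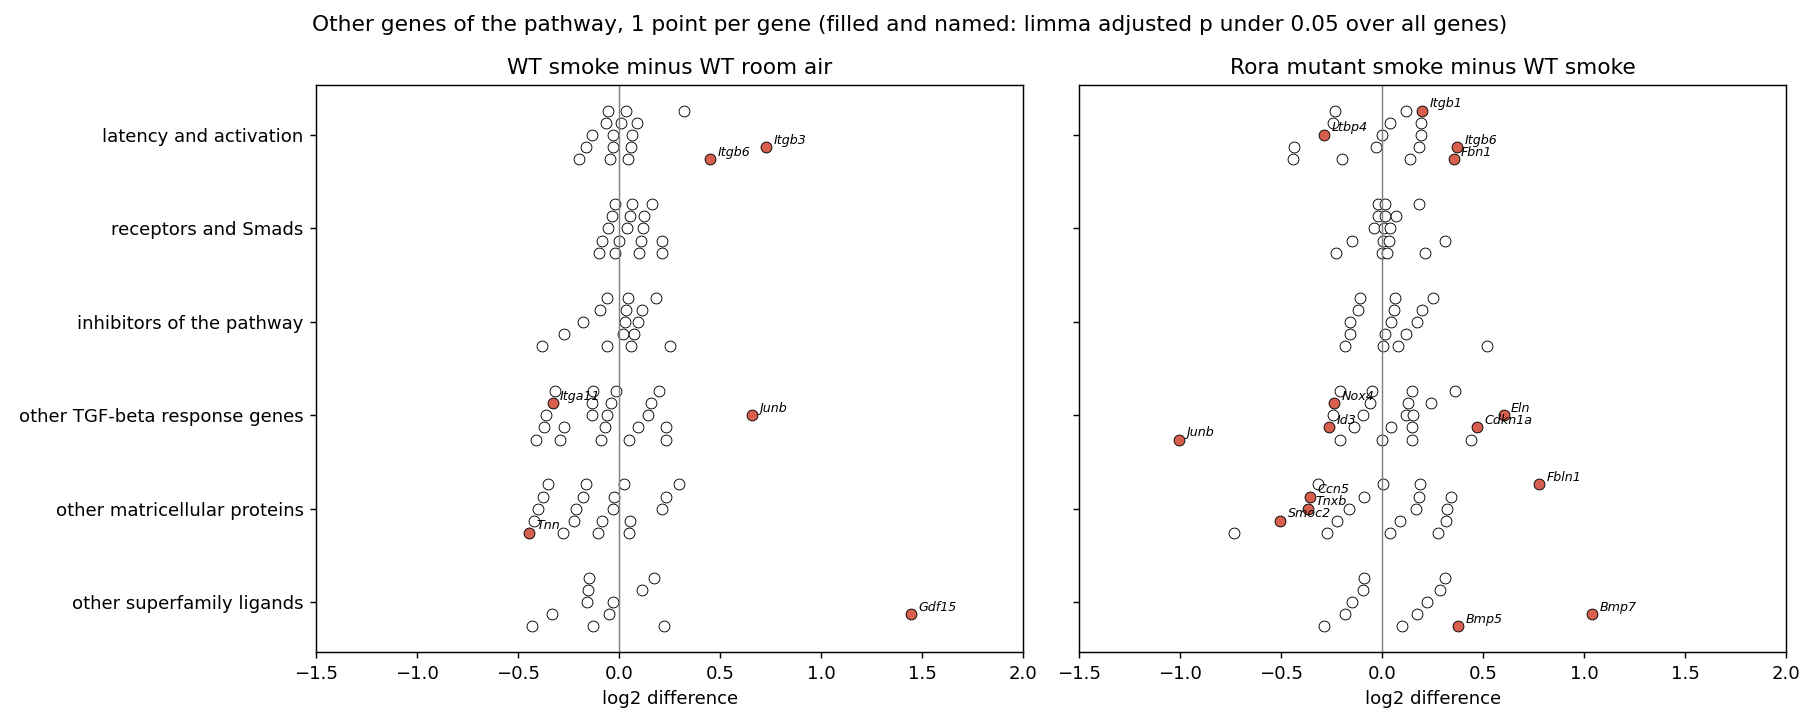
Log2 difference (x axis) of the other genes of the pathway, 1 point per gene, by list (rows), for WT smoke minus WT room air on the left and Rora mutant smoke minus WT smoke on the right. Filled, named points have a limma adjusted p under 0.05 over all genes, and vertical scatter within a row only separates points. The rows of receptors and Smads and of inhibitors hold no filled point in either panel, and Gdf15 and Bmp7 lie farthest to the right.

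Other genes known to answer to TGF-beta were counted next. In WT smoke minus WT room air 1 of 23 rose and 1 fell, which is 8.7% beside 4.86% of all genes: Junb, an AP-1 subunit that is also on the immediate early list, at 0.66 ± 0.16, and Itga11, a collagen-binding integrin chain, at -0.33 ± 0.07. In Rora mutant smoke minus WT smoke 2 of 23 rose and 3 fell, which is 21.7% beside 6.04% of all genes. Against WT room air, 3 of the 23 were higher and 2 lower in Rora mutant smoke lungs, which is 21.7% beside 16.7%. Between Rora mutant smoke and WT smoke, the elastin gene Eln was higher by 0.60 ± 0.11, and Cdkn1a, the cell cycle inhibitor p21, by 0.47 ± 0.08. Junb was lower by 1.00 ± 0.16 and Id3, an inhibitor of differentiation factors, by 0.26 ± 0.06. Junb read 3.86, 3.87, 3.91 and 3.84 on the Rora mutant smoke arrays, against 4.58, 4.52, 5.40 and 4.99 on the WT smoke arrays, which do not overlap. Col1a1 and Acta2, markers of collagen synthesis and of myofibroblasts, had 0.15 ± 0.16 and 0.15 ± 0.11 and were not called.

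Among 20 other matricellular genes, 0 rose and 1 fell in WT smoke minus WT room air (Tnn, tenascin-N, at -0.45 ± 0.11). In Rora mutant smoke minus WT smoke 1 rose and 3 fell, and in Rora mutant smoke minus WT room air 1 was higher and 5 lower. Those are 5%, 20% and 30% of the list, beside 4.86%, 6.04% and 16.7% of all genes in the same comparisons. Fbln1, an extracellular glycoprotein of elastic and basement membrane matrix, was higher in Rora mutant smoke than in WT smoke lungs by 0.78 ± 0.12, with 2.20, 2.57, 2.46 and 2.35 on the Rora mutant smoke arrays, against 1.57, 1.38, 1.81 and 1.72 on the WT smoke arrays. Its second probe had 0.80 and was called as well. In the same comparison Smoc2, a SPARC-family protein, was lower by 0.50 ± 0.08, Tnxb, a tenascin of collagenous tissue, by 0.37 ± 0.09, and Ccn5, of the same family as Ccn2, by 0.36 ± 0.09. Tnc was thus higher and Tnxb lower in the same comparison.

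Of 12 other ligands of the TGF-beta superfamily, 1 rose in WT smoke minus WT room air and 2 in Rora mutant smoke minus WT smoke, and 0 fell in either, which is 8.33% and 16.7% of the list beside 4.86% and 6.04% of all genes. Against WT room air, 4 were higher and 1 lower in Rora mutant smoke lungs, which is 41.7% beside 16.7%. Gdf15, a stress-induced ligand, was 1.44 ± 0.09 higher in WT smoke lungs than in WT room air lungs, with -0.96, -0.79, -0.85 and -1.20 on the WT smoke arrays, against -2.35, -2.35, -2.43 and -2.45 on the WT room air arrays. Bmp7, a bone morphogenetic protein known to oppose TGF-beta in kidney and other organs, read -0.18 to -0.05 on the Rora mutant smoke arrays, against -1.46 to -0.97 on the WT smoke arrays. In that comparison its 2 probes rose by 1.04 ± 0.09 and 0.91 ± 0.07 (SE). Bmp5 was the other gene called higher in the mutants, at 0.38 ± 0.07 by its brighter probe, while its dimmer probe had -0.04.

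**Figure D5:**
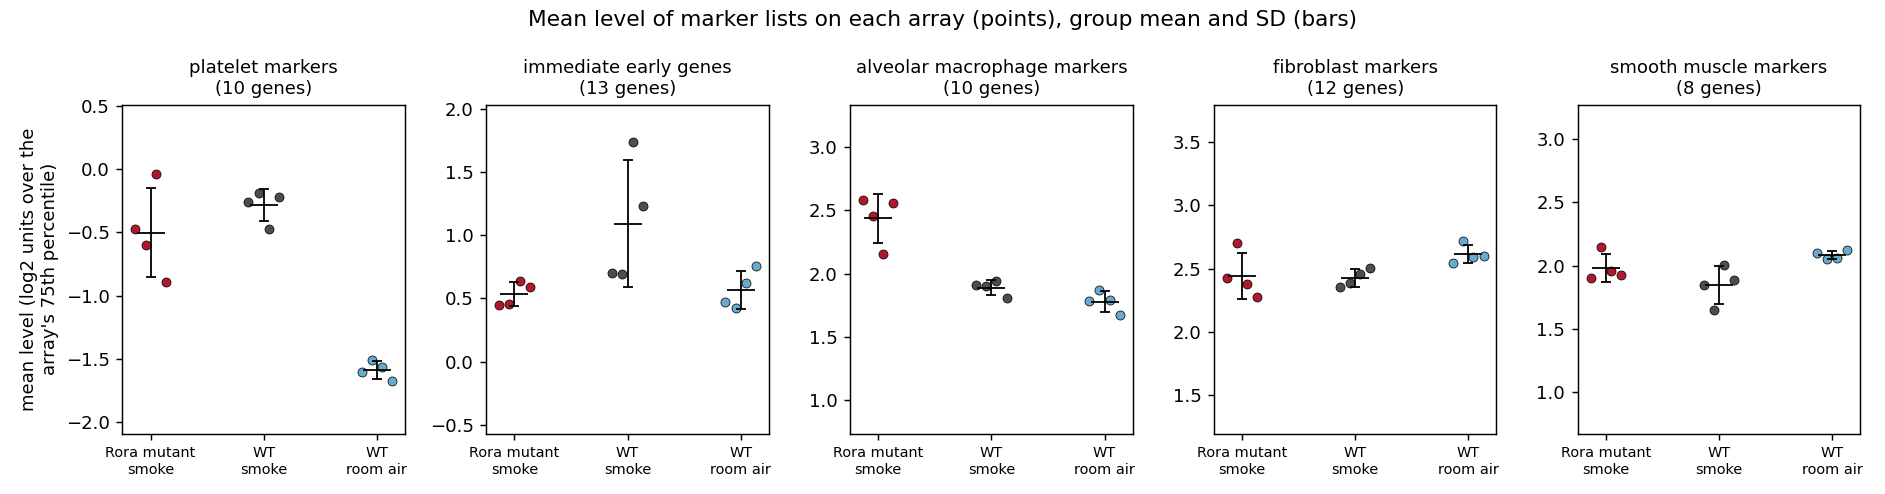
Mean level (y axis, log2 scale, relative to each array's 75th percentile of signal) of 5 gene lists on each Rora mutant smoke, WT smoke and WT room air array (points), with the mean and SD of 4 arrays (bars). Platelet markers are lowest on the WT room air arrays, immediate early genes are highest on WT smoke arrays 3 and 4, and alveolar macrophage markers are highest on the Rora mutant smoke arrays.

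For each of the 5 genes called in any comparison, the genes with the most similar profile, at most 2 each, were found among 14775 genes, as the smallest root mean square (RMS) difference of mean-centred levels over the 12 arrays. For Thbs1 they were Gstp1 (RMS 0.11 log2 units) and Osgin1 (0.13), for Tgfb3 Pde6g (0.06) and Sh3gl3 (0.07), and for Tgfbi Ctss (0.07). Tnc came closest to Ptprr (0.19) and to the macrophage marker Siglecf (0.20), and Ccn2 to Mthfd1l (0.13) and Il1rl2 (0.15). Each distance was well under the spread of the gene itself, which ran from 0.18 for Tgfbi to 0.50 for Tnc. The likeness is a description of these 12 arrays, which fall into 3 groups.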

How the data were processed

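RNA of 12 whole mouse lungs (100 ng each, per the labels) was labelled with Cy3 and hybridised to Agilent 4x44K arrays. The authors extracted signals with Agilent Feature Extraction 9.5.3.1, per the file headers. Each deposited processed signal is a linear intensity, already corrected for background within its own array, and other columns hold deposited flags. A table of log2 values from the authors served as an alternative, with a median of 6.79 in each of its 12 columns. Its sorted values differ by at most 0.0017 between columns, as quantile normalization leaves them, though no source used here states the step. Probe coordinates are on mm8, per the file headers.

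From 43379 non-control spots, outlier-flagged spots were left out and replicate spots averaged to 41174 probes. The log2 of the signal was taken relative to that of the 75th percentile of its array. Probes well above background on at least 4 arrays, with a value on at least 3 arrays of each group, were kept (30189), and the brightest stood for its gene (19823). Symbols were updated through RefSeq, where 8059 probes kept the name in the file. Each comparison came from 1 limma 3.58.1 fit (lmFit, eBayes, R 4.3.3, data.table version 1.17.8) of 3 group means on all 12 arrays, two-sided, Benjamini-Hochberg adjusted over all genes, and it was tested on simulated data. Figures were drawn with matplotlib 3.10.9 under Python 3.11.15. Between 70.1% and 74.8% of spots per array passed the scanner software's test for being well above background, and 4 arrays per group limit the precision. Nothing in the labels ties the mice to litters, so p-values measure the spread between these mice.

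All members were named with all their probes. Of each pathway list, up to 4 called genes per comparison could be named, by smallest p. Of the marker lists, defining or well-known markers were named by role and not by p. Pathway genes outside the rule were Col1a1, Acta2 and Ccn1, named for their role after their values were known. Some results are not reported here. Members and lists were chosen with earlier results of these data known, so no p was adjusted over a list alone. List counts are over the genes with a kept probe. Alternatives were normexp (offset 50) with quantile normalization, quantile normalization, median scaling, the authors' table, 2 other filters, the mean of probes, slide and replicate blocks, sex-linked genes left out, only the 8 arrays compared, trended eBayes, each array left out in turn and, chosen after seeing the data, WT smoke arrays 3 and 4 left out together. The arrays lay on 3 slides, each with all 3 groups. Promoter windows are from RefSeq.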

Additional observations from a re-analysis of the deposited data

How the results depend on the processing

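Over 24 alternative settings, Thbs1 and Tgfb3 stayed called in WT smoke minus WT room air, and Tnc and Ccn2 in Rora mutant smoke minus WT smoke. Differences ranged from 0.53 to 0.71 for Thbs1, -0.42 to -0.35 for Tgfb3, 0.47 to 1.14 for Tnc and -0.68 to -0.53 for Ccn2. Tgfbi lost its call in 2 of 24, and averaging probes made 2 members lower in that comparison, Ccn2 and Thbs1. Against WT room air, Ccn2 joined as a second lower member with slide as a block (-0.35, adjusted p = 0.028) or without Rora mutant smoke replicate 3 (-0.36, adjusted p = 0.0365). Leaving out single arrays, members called higher in Rora mutant smoke minus WT smoke numbered 1 to 2, and members called lower in Rora mutant smoke minus WT room air 1 to 2. With both WT smoke arrays 3 and 4 left out, which was chosen after seeing the data, limma called 0 members higher in WT smoke minus WT room air (Thbs1 was the loss), and 1 higher and 0 lower in Rora mutant smoke minus WT smoke, where all genes called were 133 higher and 170 lower, against 185 higher and 154 lower for smoke.

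Uncalled members near 0 changed sign. In WT smoke minus WT room air Tgfbi became -0.0076 with quantile normalization, -0.0072 with the authors' table and -0.0072 with slide as a block, and leaving out arrays gave -0.0523 to 0.0532, and -0.0284 to 0.0366 for Tgfb1. In Rora mutant smoke minus WT smoke Postn became -0.0217 with normexp and ranged from -0.0287 to 0.0706. Against WT room air Tgfb2 became -0.0125 with normexp (-0.0322 to 0.1269), Smad7 0.0551 with median scaling (-0.1116 to 0.0593), and Ltbp1 -0.0675 with probes averaged (-0.0218 to 0.0803). The cause was not tested.

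Counts over all genes were 457 higher and 506 lower in WT smoke minus WT room air. They were 294 and 270 with no filter, while the lower count was 330 with normexp, 335 with slide as a block and 332 with a replicate block, and leaving out arrays gave 275 to 459 higher and 264 to 502 lower. In Rora mutant smoke minus WT smoke 492 were higher and 706 lower, against 298 and 390 with no filter, 411 lower from only the 8 arrays compared, and 281 to 465 higher and 298 to 732 lower with arrays left out. Against WT room air 1323 were higher and 1990 lower, with 881 to 1263 higher when arrays were left out. Median scaling moved the split to 592 higher and 351 lower, 687 and 530, and 2962 and 1403 in the same 3 comparisons, while the members called stayed 1 and 1, 2 and 1, and 3 and 1. Same-numbered arrays of different groups deviated with correlations of -0.0968 to 0.2239 over 12 pairs, and other pairs of -0.2008 to 0.2063 over 36. No sign of pairing by number was seen, but these values cannot exclude one, as same-numbered arrays 1 to 3 also shared a slide. The replicate block changed no call of a member. Calls of other named pathway genes were lost in some of the 24 settings. In Rora mutant smoke minus WT smoke these were 20 for Itgb1, 15 for Ccn5, 13 for Tnxb and 11 for Itgb6. Fewer were lost there for Fbn1 (8), Ltbp4 (7), Id3 (6) and Bmp5 (1). In WT smoke minus WT room air they were 18 for Tnn, 12 for Junb, 4 for Itga11 and 3 for Itgb6. In Rora mutant smoke minus WT room air they were 12 for Smad3 and 3 for Acvrl1.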
